A study of Mus musculus with 16 samples.

Results

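*Serpina3f*, *Serpina3g* and *Tgtp1* are interferon-gamma inducible genes of mouse macrophages. They were chosen by their symbols in a table of N6-methyladenosine (m6A) peaks because their counts were lower in mock-treated PMs (peritoneal macrophages) that lack ADAP than in mock-treated WT PMs, so that difference is described here and not tested. The 3 symbols hold 36 of the 7069 peaks and 9 of the 4943 gene identifiers of the table. *Serpina3f* has 3 peaks and *Serpina3g* has 6, each set on 1 gene identifier. The symbol *Tgtp1* stands on 27 peaks and 7 gene identifiers, whose descriptions name *Tgtp1*, *Tgtp2*, *Ifi47*, *Gm5431*, *Gm12185*, *9930111J21Rik1* and *9930111J21Rik2*, and 17 of the 27 peaks are listed for more than 1 identifier. These 7 genes lie side by side on chromosome 11 and are given separately below under the names in their descriptions, and *Ifi47* alone made up between 45.6% and 63.0% of the input counts under the symbol.

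PMs were drawn from C57BL/6 WT mice and from *Adap*-/- mice, which lack the adaptor in every cell, both 3 days after an injection of 3% thioglycolate that all animals received. Cells of each genotype were mock-treated or given LPS at 1 μg/ml over 6 h. In MeRIP-seq, fragmented RNA is sequenced before (input) and after (IP) pull-down with an antibody to m6A, so that the input counts follow the level of the RNA and the IP-to-input ratio follows its methylation. The 4 groups held 2 replicates each, with 1 input and 1 IP library per replicate, or 16 libraries in all. The labels do not say that replicates came from separate animals, so the p-values measure only the spread between these samples, which may be technical.

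Interferon-gamma is made mainly by NK and T cells and signals in macrophages through a receptor and the kinases JAK1 and JAK2, and the signal ends at gamma-activated sites (GAS) in promoters. LPS, the endotoxin of Gram-negative bacteria, reaches many of the same genes through the interferon-beta that macrophages make themselves, acting on interferon-stimulated response elements (ISRE). *Serpina3f* and *Serpina3g* encode clade A serpins, and the *Serpina3g* protein is an intracellular inhibitor of cathepsins. *Tgtp1*, *Tgtp2* and *Ifi47* encode immunity-related GTPases (IRGs), which gather on the vacuoles of intracellular pathogens, and *Gm5431*, *Gm12185* and the 9930111J21Rik pair are neighbours in the same gene cluster.

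The promoter stretches before a start site that hold a GAS-like or ISRE-like letter pattern are shown because these sites are the textbook route to these genes. RefSeq promoters, from 250 bases before to 50 bases after a start site on build GRCm38.p6, were found for all 9 genes (10 promoters, since *Serpina3f* has a pair). They were searched on both strands for TTCNNNGAA (GAS-like) and for GAAA followed after any 2 bases by GAAA (ISRE-like), and the matches are in capitals, 5′ to 3′ on the strand of the gene.
*Serpina3f*, chr12:104214414-104214440, plus strand: cagttctatTTCCTAGAAatcacccat
*Serpina3g*, chr12:104236105-104236131, plus strand: aagttatagTTCCCAGAAatcacccgg
*Gm12185*, chr11:48927245-48927271, minus strand: catTTCCAGGAAtaGAAAGTGAAAcct
*Tgtp1*, chr11:48992311-48992337, minus strand: catTTCCAGGAAtcGAAACTGAAAcct
*Tgtp2*, chr11:49064270-49064296, minus strand: catTTCCAGGAAtcGAAACCGAAAcct
The *Serpina3g* stretch lies from position -42 to -16, counted from its start site. The *Serpina3f* match begins at -121 from one of its start sites and at -210 from the other. Both serpin promoters hold the GAS-like pattern without the ISRE-like one. *Gm12185*, *Tgtp1* and *Tgtp2* hold both patterns next to each other without overlap, from -89 to -63, -91 to -65 and -84 to -58. The GAS-like pattern was in the promoters of 5 of the 9 genes, against 8.3% of 32851 promoters of the same length, and the ISRE-like one in 4 of 9, against 3.44%. Both together stood in 0.454% of all promoters. The fourth ISRE-like match, in *9930111J21Rik1*, begins at position 26, past the start site, and is not printed. *Gm5431*, *9930111J21Rik2* and *Ifi47* had neither set of letters in this window. A match is a description of the letters and not a bound site.

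Total counts lay between 2121313 and 4325961 in the input and between 5728590 and 19030373 in the IP libraries. Intervals and floors from counts cover counting error only, since molecules were not marked before PCR. *Fyb1*, which encodes ADAP, read 244 and 257 CPM (counts scaled to library size by TMM) in WT mock, 349 and 377 in WT LPS, 46.7 and 36.9 in *Adap*-/- mock and 41.5 and 35.7 CPM in *Adap*-/- LPS input. On the 2 of its 4 peaks that were near 0 in every *Adap*-/- input library, between 2 and 6 reads were counted there against 774 to 936 in WT input, but the library labelled *Adap*-/- mock IP 1 held 101 such reads. Of 8 listed macrophage markers 7 were measured, at a summed 12204 to 16200 CPM across the 8 input libraries. Of 16 NK and T cell markers only *Klrk1* was measured, at 0.387 to 1.80 CPM in mock and 27.4 to 78.9 CPM in LPS input. Only genes with an m6A peak have counts here, so the absence of the other markers says nothing about their level. The CPM of these markers were scaled over the peaks of all 16 libraries. Input CPM of *Fyb1* and the members were scaled over the genes of the 8 input libraries, so the scales differ.

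The IP libraries labelled WT mock 1 and *Adap*-/- mock 2 stood apart from the other mock IP libraries. The summed IP level of 18 genes of the early LPS response reached 117% and 86.0% of the mean of the LPS IP libraries of the same genotype, against 9.23% in WT mock IP 2 and 9.82% in *Adap*-/- mock IP 1. In all 4 mock input libraries it was 1.52% to 1.90% of the LPS input mean. Several members moved with it. *Serpina3g* stood at 141% and 114% of the LPS mean in these 2 IP libraries and at 15.1% and 18.8% in the other 2. *Ifi47* stood at 35.2% and 34.4% against 7.34% and 7.32%. *9930111J21Rik2* did not move with it in WT PMs (25.3% in mock IP 1, 39.4% in mock IP 2). *9930111J21Rik1* did not in *Adap*-/- PMs (26.2% in mock IP 2, 29.3% in mock IP 1). IP results that rest on mock libraries are therefore given with and without these 2 libraries, while input levels do not use them.

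In mock-treated PMs the 3 named genes and *Tgtp2* were low in both genotypes and lower in *Adap*-/- PMs, and 1 WT replicate held most of the reads. *Serpina3f* had 3 and 24 input reads in WT mock (0.767 and 6.47 CPM) and no read in either *Adap*-/- mock library. That is at least 4.77-fold lower, taking 3 reads per library as the floor of a count of 0. The bound rests on WT mock 2, since the 3 reads of WT mock 1 are themselves at the floor and give no fold. *Serpina3g* read 45.8 and 172 CPM in WT mock and 26.8 and 18.0 CPM in *Adap*-/- mock, a ratio of means of 4.87. *Tgtp1* had 8 and 32 reads in WT mock (2.05 and 8.62 CPM) and 7 and 7 in *Adap*-/- mock (1.84 and 1.70 CPM), which is 3.02-fold lower. In each of these genes both *Adap*-/- libraries were below both WT libraries, but WT replicate 1 lay nearer to the knockout than to WT replicate 2, as it also did in *Tgtp2*.

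*Tgtp2*, the near-identical paralogue of *Tgtp1*, read 23.0 and 97.3 CPM in WT mock and 8.66 and 8.98 CPM in *Adap*-/- mock, 6.82-fold lower. Because reads could be assigned to either paralogue, the split between *Tgtp1* and *Tgtp2* is uncertain. *Ifi47* read 146 and 321 CPM in WT mock and 151 and 134 CPM in *Adap*-/- mock, so the groups overlapped. Summed over all their peaks, the other 4 genes of the cluster did not share the pattern, with a ratio of means of at most 1.17 in either direction. On its 4 unshared peaks alone *Gm12185* had a log2 difference of -0.86. These peaks held 9 and 12 reads in WT mock and 1 and 11 in *Adap*-/- mock input. Over the 9 genes both *Adap*-/- replicates were below both WT replicates in 4, above in 1 and overlapping in 4, beside 29.9% of all 4742 genes tested with both below and 29.8% with both above. Nothing is read from this count, because this contrast chose the genes.

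Leaving out 1 WT mock library moved each of these differences. Without WT mock 2 the log2 difference was -1.04 for *Serpina3g* and -0.21 for *Tgtp1*, and 3 reads remained for *Serpina3f*. Without WT mock 1 it was -2.95 for *Serpina3g* and -2.26 for *Tgtp1*. In PMs taken as bulk, fewer cells of a type and less RNA per cell cannot be told apart.

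**Figure D1:**
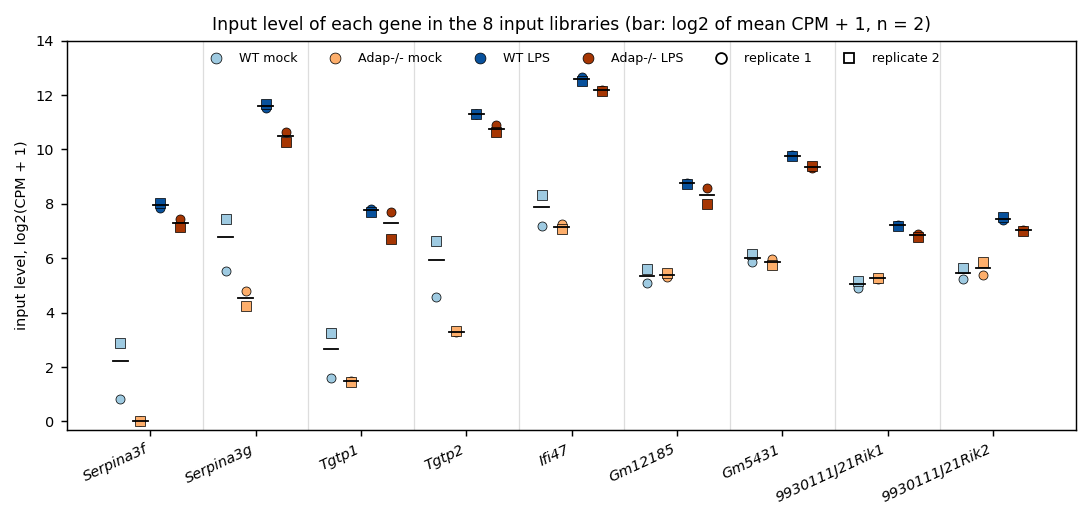
Input level of the members in each of the 8 input libraries, as log2 of TMM-scaled CPM + 1, with 1 point per library (colours for groups, circles for replicate 1, squares for replicate 2) and a bar at the log2 of the group mean + 1. The LPS points lie above the mock points for each of the 9 genes, and WT mock 2 lies above WT mock 1 for *Serpina3f* (6.47 against 0.767 CPM), *Serpina3g* and *Tgtp1*.

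The mock difference across a list of interferon-gamma inducible genes also changed with the WT replicate left out. The list named 58 genes, of which 35 that are no members were tested. *Gbp8* and *Gbp9* have identical counts, so the 35 hold 34 distinct values and each count of genes that includes this pair counts it as 2. In mock-treated PMs 6 of the 35 were lower in *Adap*-/- by the test, 2 were higher and 27 did not pass, with a median log2 difference of -0.34, against 0.0072 over all genes and 8.65% of all genes called lower and 8.71% higher. The IRG genes *Igtp* (-0.87), *Irgm1* (-0.75) and *Irgm2* (-0.71) were lower, as were the transcription factor *Irf1* (-0.69) and the surface receptor *Slamf8* (-0.58). *Acod1*, the source of itaconate, was higher by 0.60 and the adhesion molecule *Icam1* by 0.65. Without WT mock 1 the list had 20 genes lower and without WT mock 2 it had 0. Over all genes, the number called in mock in either direction ran from 308 to 882 across libraries left out. The change in the list is therefore not read as particular to it. These counts come from the contrast that chose the members and are no support for them. *Iigp1*, another IRG, showed the same spread between WT replicates, with 4.09 and 31.3 CPM in WT mock and 5.77 and 3.16 CPM in *Adap*-/- mock. In a list of genes induced by type I interferon, 10 of 25 tested were higher in *Adap*-/- mock PMs and 0 lower, with a median of 0.46.

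In a list of interferon receptor, signalling and cytokine genes, 2 of 14 tested were higher in *Adap*-/- mock PMs, 2 lower and 10 did not pass. Over all genes 8.71% were higher and 8.65% lower. *Ifng* itself was not analysed here. The receptor genes *Ifngr1* and *Ifngr2* read 311 and 314 CPM and 324 and 326 CPM in WT mock and 341 and 317 CPM and 285 and 279 CPM in *Adap*-/- mock, and neither passed the test. *Jak2* was higher in *Adap*-/- mock by 0.71 on the log2 scale, while *Jak1* differed by -0.057 and *Socs1*, the feedback inhibitor of the receptor, by -0.39 without passing. Of 4 cathepsin genes tested, as possible targets of such serpins, 1 was lower in *Adap*-/- mock and 3 did not pass. It was *Ctsl*, lower by 1.17 on the log2 scale (1160 and 1540 CPM in WT, 605 and 594 CPM in *Adap*-/-).

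LPS raised all 9 genes in both genotypes. These comparisons use the mock libraries that chose the genes, so a low mock level enters them. *Serpina3f* rose from 0.767 and 6.47 CPM to 229 and 262 CPM in WT PMs, a log2 fold change of 6.10 (SE 0.310, edgeR adjusted p = 1.42e-10). In *Adap*-/- PMs it rose from 0 and 0 to 171 and 140 CPM, at least 205-fold. *Serpina3g* went from 45.8 and 172 to 2982 and 3287 CPM in WT PMs (4.85, SE 0.381) and from 26.8 and 18.0 to 1615 and 1249 CPM in *Adap*-/- PMs (6.01, SE 0.430). *Tgtp1* reached 224 and 209 CPM in WT and 209 and 103 CPM in *Adap*-/- PMs after LPS, a rise of 5.36 and 6.45 on the log2 scale. All LPS libraries lay above all mock libraries for each of the 3 genes.

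The cluster around *Tgtp1* fell into strong and weak responders. *Tgtp2* rose by 5.41 in WT and 7.62 in *Adap*-/- PMs, and *Ifi47* by 4.74 and 5.01, on the log2 scale. *Gm5431* rose by 3.78 and 3.53 and *Gm12185* by 3.43 and 2.96. Most *Gm12185* counts come from peaks shared with *Tgtp1* and *9930111J21Rik1*. Its 4 unshared peaks held 201 of 1405 and 187 of 1171 reads in WT LPS input. Scaled over all 16 libraries, these peaks averaged 4.24 CPM in WT mock and 84.6 in WT LPS input. In *Adap*-/- input they averaged 2.17 CPM in mock and 60.1 in LPS. *9930111J21Rik1* and *9930111J21Rik2* rose least of the 9, by 2.21 and 2.03 in WT and by 1.60 and 1.40 in *Adap*-/- PMs. By edgeR 9 of 9 passed in each genotype, beside 30.2% of all genes called higher in WT and 28.5% in *Adap*-/- PMs. These counts use the mock libraries that chose the genes, and *Serpina3f* and *Tgtp1* passed the filter on low counts only through their LPS libraries. Nothing is read from the counts. The log2 response of *Adap*-/- PMs minus that of WT PMs was 1.15 for *Serpina3g*, 1.10 for *Tgtp1* and 2.21 for *Tgtp2*. It was -0.62 for *9930111J21Rik1* and -0.63 for *9930111J21Rik2*. These differences contain the mock contrast that chose the genes and were not tested.

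**Figure D2:**
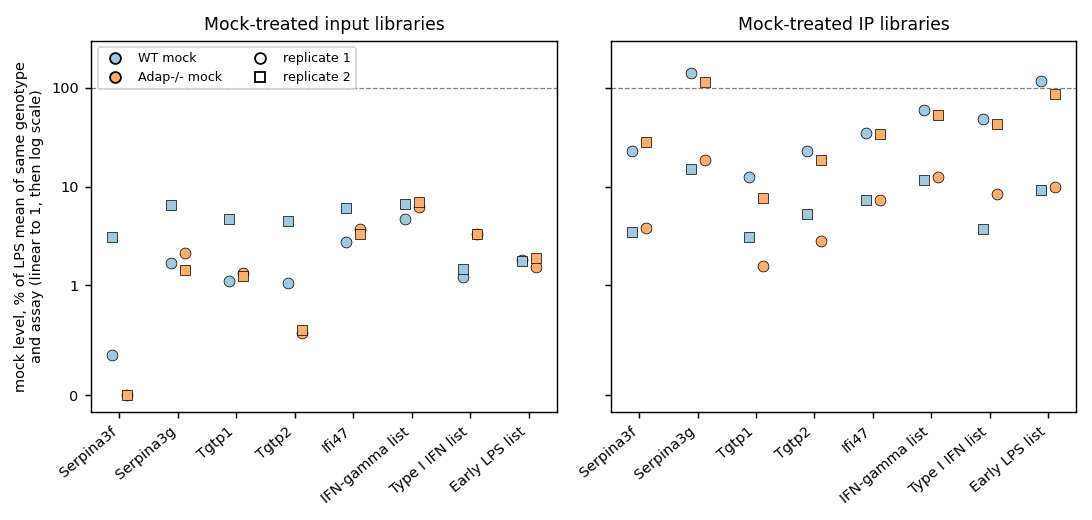
Level in each mock library as a percent of the mean of the LPS libraries of the same genotype and assay, on a log axis that is linear from 0 to 1%, for 5 members and the summed genes of 3 lists, with input and IP libraries shown apart. In the input the mock libraries stay below 10% for these members, while WT mock IP 1 and *Adap*-/- mock IP 2 lie above the other mock IP libraries for all 8 items, up to 141% for *Serpina3g*.

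The lists rose with LPS as well. In WT PMs 33 of the 35 interferon-gamma inducible genes rose and 1, *Tapbp*, fell by 0.42 on the log2 scale. Over all genes 30.2% were higher and 28.9% lower. The median was 3.93 in the list and -0.032 over all genes. The largest rises were those of *Nos2*, the inducible nitric oxide synthase (9.52), the chemokine *Cxcl10* (8.82) and the guanylate-binding protein *Gbp5* (7.16). In *Adap*-/- PMs 33 rose and 0 fell, beside 28.5% of all genes higher and 26.0% lower. The median was 4.10 in the list and -0.033 over all genes. The receptor gene *Ifngr1* fell by 1.59 in WT and by 1.48 in *Adap*-/- PMs, while *Jak2* rose by 3.62 and 2.94 and *Socs1* by 5.29 and 5.83 on the same scale.

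After LPS, both serpins were lower in *Adap*-/- than in WT PMs. This contrast does not use the mock libraries except for the shared estimate of the spread. *Serpina3g* stood at 2982 and 3287 CPM in WT and 1615 and 1249 CPM in *Adap*-/- PMs, a log2 difference of -1.13 (SE 0.321, edgeR adjusted p = 0.0255) or 2.19-fold. *Serpina3f* stood at 229 and 262 against 171 and 140 CPM, a log2 difference of -0.65 (SE 0.192, edgeR adjusted p = 0.0325) or 1.57-fold. The groups did not overlap in either gene. *Tgtp1* overlapped, with 224 and 209 CPM in WT and 209 and 103 CPM in *Adap*-/- PMs, and did not pass (-0.46, SE 0.243, edgeR adjusted p = 0.232).

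*Tgtp2* stood at 2545 and 2529 CPM in WT LPS and 1892 and 1596 CPM in *Adap*-/- LPS, a log2 difference of -0.54 that did not pass (edgeR adjusted p = 0.252). *Ifi47* stood at 6525 and 5892 against 4699 and 4527 CPM, a difference of -0.43 that did not pass either (edgeR adjusted p = 0.222). The groups of both genes stood apart even so. *Gm5431* (894 and 861 against 641 and 679 CPM, log2 difference -0.41) and *9930111J21Rik1* (150 and 146 against 117 and 110 CPM, -0.38) were lower, with edgeR adjusted p of 0.0139 and 0.0309. *Gm12185* and *9930111J21Rik2* had log2 differences of -0.44 and -0.43 with edgeR adjusted p of 0.0681 and 0.0512.

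Of the 9 genes 4 were lower in *Adap*-/- LPS PMs and 0 higher, beside 9.78% of all genes lower and 6.03% higher. Both *Adap*-/- replicates were below both WT replicates in 8 of 9, beside 29.8% of all genes, and the median log2 difference was -0.44 against -0.011 over all genes. *Klrk1* also moved with genotype after LPS, at 78.9 and 54.3 CPM in WT and 34.7 and 27.4 CPM in *Adap*-/- input. These *Klrk1* values are on the scale of all 16 libraries, and the part of *Klrk1* in these results was not tested. The calls depended on the libraries in the fit. With the 4 LPS input libraries alone 7 of 9 were lower (beside 10.4% of all genes), *Tgtp2* with an adjusted p of 0.00153 and *Ifi47* with 0.00391. With 1 library left out in turn, the members that passed changed with the library. Of the 9, 0 passed without *Adap*-/- LPS 2, WT LPS 1 or WT LPS 2, and 8 passed without WT mock 1 or WT mock 2. Over all genes, the number called in either direction ran from 354 to 883 across libraries left out. Across these fits the log2 difference ran from -1.33 to -0.96 for *Serpina3g*, from -0.81 to -0.52 for *Serpina3f* and from -1.08 to -0.050 for *Tgtp1*. DESeq2 on the 8 input libraries called only *Gm5431*. On the 4 LPS input libraries, a choice made after seeing the data, it called 5, *Serpina3f*, *Serpina3g*, *Gm5431*, *Tgtp2* and *Ifi47*. The share of all genes that DESeq2 called is not given here, so nothing is read from its counts.

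**Figure D3:**
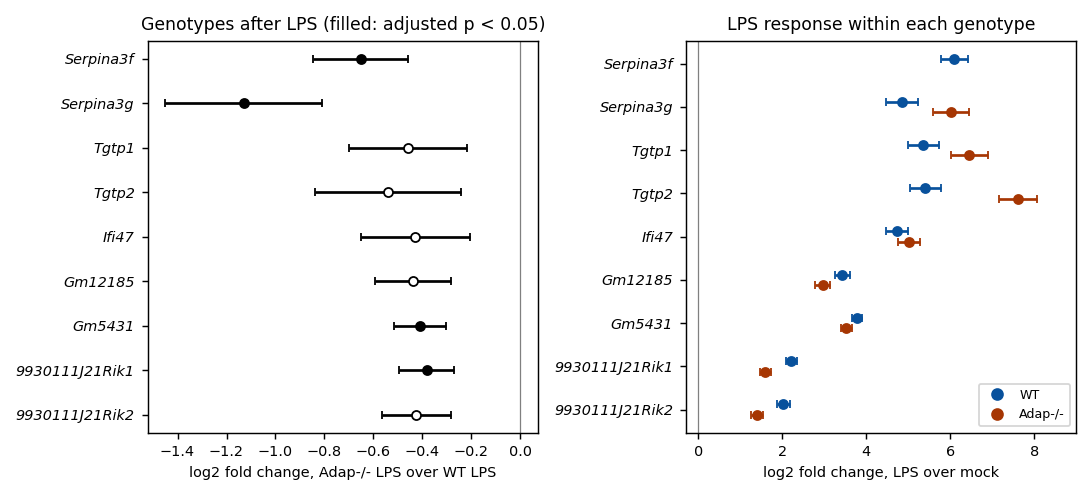
Log2 difference of each of the 9 genes in the input libraries for *Adap*-/- against WT after LPS and for LPS against mock in each genotype, with points for the fitted value, bars for 1 SE and, on the left, filled points for an adjusted p below 0.05. No point is drawn for *Serpina3f* in *Adap*-/- PMs, where only a bound can be given. All 9 points for *Adap*-/- against WT after LPS lie below 0, between -1.13 and -0.38, and the points for LPS against mock lie above 0.

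In the wider interferon-gamma list few genes passed after LPS. Of the 35 genes 2 were lower in *Adap*-/- LPS PMs, a share below the 9.78% of all genes, and 0 were higher, with a median log2 difference of -0.20 against -0.011 over all genes. They were *Fcgr1*, the high-affinity IgG receptor (-1.28, edgeR adjusted p = 0.000204), and *Slamf8* (-0.75, edgeR adjusted p = 0.00126). With the LPS input libraries alone, or without either WT mock library, 9 of the list were lower, beside 10.4% of all genes in the fit of the LPS libraries alone. The IRG relatives *Iigp1* (-0.62), *Igtp* (-0.52), *Irgm1* (-0.50) and *Irgm2* (-0.42) did not pass, at edgeR adjusted p between 0.0866 and 0.182, and *Gm4951* read -0.17. *Jak1* (-0.22), *Jak2* (0.026), *Irf1* (-0.15), *Socs1* (0.16) and the receptor genes *Ifngr1* (0.19) and *Ifngr2* (-0.082) did not pass.

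Other lists moved in opposite directions after LPS. In the type I interferon list 16 of 25 genes were lower in *Adap*-/- LPS PMs and 0 higher, with a median of -0.44 on the log2 scale, beside 9.78% of all genes lower and 6.03% higher. Its lowest were the kinase *Cmpk2* (-1.40), *Ifit3b* (-1.31) and *Rsad2*, which encodes viperin (-1.03). In the list of early LPS response genes 10 of 18 were higher and 0 lower against the same shares, with a median of 0.79, among them the chemokine *Cxcl3* (1.91) and lipocalin-2, *Lcn2* (1.40). In the list of interferon receptor, signalling and cytokine genes 2 of 14 were higher, 1 lower and 11 did not pass, beside the same shares of all genes. Among its cytokines that feed interferon-gamma production, *Il12a* (0.92) and *Il12b* (0.87) were higher and *Il15* (-0.72) was lower. Of the 4 cathepsin genes only *Ctsl* was lower in *Adap*-/- PMs after LPS, at 719 and 726 CPM against 1353 and 1332 CPM (log2 difference -0.89, edgeR adjusted p = 0.000182).

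The genes whose log2 input level was most like that of each member across the 8 input libraries included other members and IRGs. For *Serpina3f* they were *Tgtp2* (r = 0.9997), *Psmd7*, *Serpina3g* (r = 0.996), *Calhm6* and *Mdfic*. For *Serpina3g* they were *Psmd7*, *Serpina3f*, *Cd83*, *Tgtp2* and *Mdfic*, and for *Tgtp1* they were *Igtp* (r = 0.996), *Irgm1*, *Mdfic*, *Irgm2* and *Ifi47*. The 8 points share libraries and the split between mock and LPS, so the values describe a shape and not its size: *Psmd7*, a proteasome subunit, had a log2 LPS response of only 0.55 in WT PMs. *Calhm6*, itself inducible by interferon-gamma, rose by 5.58.

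The methylation signal differed sharply among the peaks of these genes. The IP-to-input ratio was taken as IP CPM over input CPM where the input held at least 10 reads, and its median over 6020 peaks in the 4 LPS pairs was 0.981. *Serpina3g* lies on the plus strand of chromosome 12 with 6 peaks between 104202503 and 104207918 (build GRCm39, positions as the table gives them). Its peak 1, in the 5′ UTR, had a mean ratio of 1.28 from few input reads (20 and 16 in WT LPS, 18 and 10 in *Adap*-/- LPS). Peak 2, across the start codon, had 0.244, and peaks 3 to 6, from the coding sequence to the 3′ UTR, had 0.0839, 0.0728, 0.0694 and 0.0742. Between 0.615% and 1.20% of all peaks had a lower ratio than peaks 3 to 6, although these were among the deepest members, with 1262 to 2097 input reads in WT LPS 1.

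*Serpina3f* showed the same order along its 3 peaks, from 1.28 in the 5′ UTR over 0.657 in the coding sequence to 0.101 across the stop codon. Its 5′ UTR peak had 354 IP reads in *Adap*-/- LPS 1 and 0 in *Adap*-/- LPS 2, so its ratio is not stable between replicates. *Tgtp1* had ratios of 0.427 and 1.70 on its 2 coding peaks and *Tgtp2* had 0.390, 1.02 and 0.128 on its 3. *Ifi47* had 1.56, 0.546 and 0.484, the last from the peak that spans its start and stop codons. Summed over its peaks *Serpina3g* lay between 0.0928 and 0.161 in the 4 LPS pairs, *Serpina3f* between 0.433 and 0.556, and *Tgtp1* between 0.976 and 1.62.

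Low ratios were common on genes that LPS raised. Of 382 peaks on other genes with a log2 LPS response above 4 in WT PMs, 42.7% had a mean ratio below 0.3, against 3.65% of all peaks, and their median was 0.426. Summed over the lists, the ratio in the LPS pairs lay between 0.296 and 0.355 for the interferon-gamma list, 0.330 and 0.372 for the type I interferon list, 0.154 and 0.196 for the early LPS list, and 0.507 and 0.782 for the macrophage markers.

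**Figure D4:**
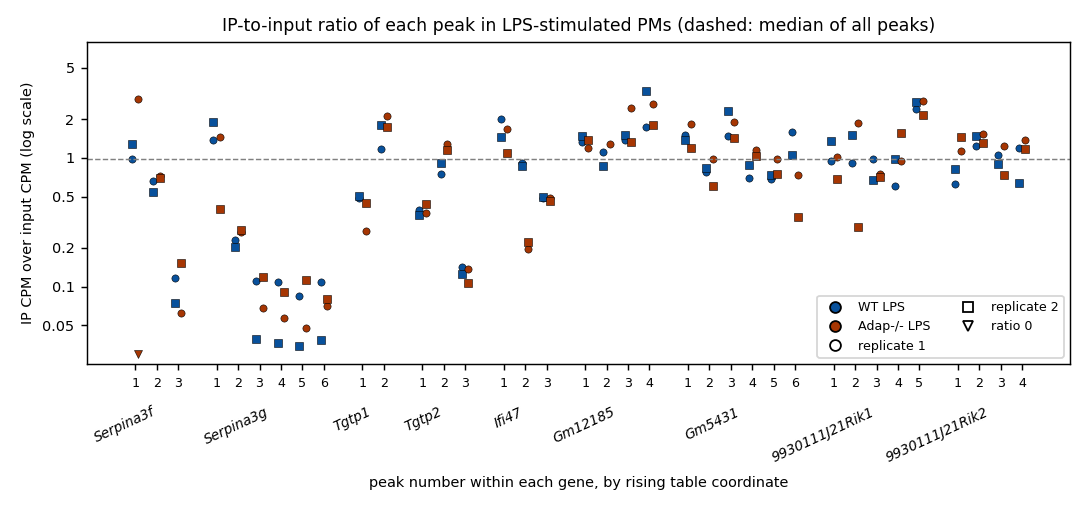
IP-to-input ratio of each peak of the 9 genes in the 4 LPS library pairs, on a log axis, with peaks numbered by rising coordinate, 1 point per pair, a triangle for a ratio of 0 and a dashed line at the median of all peaks. Peaks 3 to 6 of *Serpina3g* and peak 3 of *Serpina3f* lie near 0.1 or below in both genotypes, while the first peak of each serpin lies between 0.975 and 1.88 in WT PMs.

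Methylation of the members did not differ detectably between *Adap*-/- and WT PMs after LPS. In a model of IP against input counts over the 16 libraries, 0 of 36 peaks passed, beside 0.0% of all 7058 peaks higher and 0.0142% lower, and 0 of 36 had an unadjusted p below 0.05 by edgeR, beside 3.05% of all peaks higher and 4.08% lower at that level. DESeq2 also called 0 of the 36. The log2 differences ran from -2.10 to 0.85 with a median of 0.053, 22 above and 14 below 0, and the smallest edgeR adjusted p was 0.906. For *Serpina3g* peak 4, across the stop codon, the ratios were 0.108 and 0.0365 in WT and 0.0568 and 0.0905 in *Adap*-/- PMs, a log2 difference of 0.034 with an SE of 1.38. The replicates of 1 group thus differed more than the genotypes. Of 35 peaks with a ratio in all 4 LPS pairs, both *Adap*-/- ratios were below both WT ratios in 3 and above in 6, beside 21.9% and 25.8% of all 6020 such peaks. *Ifi47* peak 2, in the 5′ UTR, had 0.904 and 0.862 in WT and 0.195 and 0.222 in *Adap*-/- PMs (log2 difference -2.10, SE 1.72), from 30 to 59 input reads per library. *Tgtp2* peak 2 had 0.742 and 0.904 in WT and 1.28 and 1.14 in *Adap*-/- PMs (0.56, SE 1.09), and neither peak passed the test. Standard errors of the 36 peaks ran from 0.272 to 2.09, and a difference has to be several standard errors to pass. Of 200 simulated peaks changed by 2 on the log2 scale, 74 were recovered, so even differences of that size could be missed.

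Against mock, the fitted ratio after LPS was lower on every peak of the 2 serpins and *Tgtp2* in WT PMs. In *Adap*-/- PMs it was lower on every one but peak 1 of each serpin. Peak 1 of each serpin had at most 1 IP and 1 input read per *Adap*-/- mock library and 0 input reads in WT mock. Its direction is therefore not read in either genotype. *Serpina3f* peaks 2 and 3 also had 0 input reads in *Adap*-/- mock. The mock input counts stand below the line in the mock ratio, and low *Adap*-/- mock counts chose these genes, so a low ratio after LPS in *Adap*-/- PMs is partly set by the choice. The counts that follow are a description from which nothing is read. In WT PMs 0 of 36 peaks passed, 26 log2 differences were below 0 and the median was -1.22, against 0.099 over all peaks, and 9 were lower with an unadjusted p below 0.05 and 0 higher (beside 5.99% and 4.82% of all peaks). In *Adap*-/- PMs 0 passed, the median was -0.83 against 0.054, and 12 were lower and 1 higher at that level (beside 5.62% and 5.88%). The mock ratios also rest on the libraries that stood apart. For *Serpina3g* peak 2 the mock ratios were 8.75 and 0.386 in WT and 1.37 and 16.2 in *Adap*-/- PMs, against LPS ratios from 0.204 to 0.274. The high value came each time from WT mock IP 1 or *Adap*-/- mock IP 2.

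Leaving out both of these IP libraries, a choice made after seeing the data, left 1 mock IP library per genotype, which is assumed to vary as the other groups do. In WT PMs 0 of 36 peaks passed then, with a median of -0.52, beside 1.73% of all peaks lower and 0.538% higher. In *Adap*-/- PMs 9 peaks were lower and 1 higher, beside 2.41% and 1.4% of all peaks. The 9 were *Serpina3g* peaks 2 to 6, *Serpina3f* peaks 2 and 3 and *Tgtp2* peaks 1 and 3, all with the mock input counts that chose the genes in the ratio. The remaining mock library, *Adap*-/- mock IP 1, is the one that held *Fyb1* reads, and its mock input counts on *Serpina3f* were 0. With all 16 libraries DESeq2 called 9 of the 36 peaks lower in *Adap*-/- and 4 in WT PMs, all 4 of them on *Serpina3g*. Among the 7058 peaks in the fit it called 117 in *Adap*-/- and 201 in WT PMs, in either direction. The part of the mock IP libraries in these lower ratios was not tested.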

How the data were processed

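RNA of mock-treated and LPS-stimulated PMs was profiled by MeRIP-seq in 16 libraries. The authors deposited 1 table of raw read counts per merged peak, made on the Omicsmart platform. The submitters' processing notes name Bowtie2 2.2.8, MACS2 2.1.2, DiffBind 2.8 and GRCm39. Whether reads were counted by strand is not given in the sources used here, and the gene *Olfr56* spans several peaks of the *Tgtp1* cluster. The 8094 table lines hold 7069 peaks, and a peak listed for several gene identifiers was counted for each. Gene names follow the description column, because 86 symbols stand on more than 1 identifier.

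The planned tests assumed a table of genes. As it holds peaks, input counts were summed per gene identifier. Depth is given as total counts, from 2121313 to 19030373 per library. The quasi-likelihood test of edgeR 4.0.16 (R 4.3.3) was used after TMM scaling. Features had to pass filterByExpr (at least 10 counts, 15 in total), and p-values were adjusted by Benjamini-Hochberg over all of them, with a threshold of 0.05. The 8 input libraries were fitted together with 4742 genes and all 16 libraries with 7058 peaks, where groups were compared in IP over input. All 9 genes and 36 peaks passed the filter. Biological variation was 8.82% for genes and 30.6% for peaks. Tested on simulated data, the gene step recovered 200 of 200 genes changed by 2 on the log2 scale with 11 false calls among 4701, and the peak step 74 of 200 with 3 false among 7046. Where a group had no reads, folds are bounds against 3 counts per library. Promoters were read from RefSeq tables with Python 3.11.15.

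The members and lists were chosen with earlier results of these data known. Named genes are the members, their serpin and IRG relatives, called genes of the interferon-gamma list up to 6 per direction by size, the interferon-gamma pathway, the 5 genes most like each of the 3 by Pearson r, and *Fyb1*. A gene that this rule names is counted in its list but not reported here. Genes named from the type I interferon, early LPS, cytokine and serpin target lists were chosen after their values were seen. Alternatives were RLE and upper-quartile scaling, DESeq2 1.42.0, other filters, only the groups compared, the replicate number as a block, each replicate left out, and single peaks.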

Additional observations from a re-analysis of the deposited data

How the results depend on the processing

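All 9 genes rose with LPS in both genotypes under every alternative run that tested them. Across the libraries left out in turn, the log2 difference after LPS between *Adap*-/- and WT PMs ran from -0.81 to -0.52 for *Serpina3f*, from -1.33 to -0.96 for *Serpina3g* and from -1.08 to -0.050 for *Tgtp1*, and the mock difference from -7.48 to -4.47 for *Serpina3f*, fitted values against counts of 0 that are no bounds, and from -2.26 to -0.21 for *Tgtp1*. *Serpina3f* lost its call without *Adap*-/- LPS 2, WT LPS 1 or WT LPS 2, and *Serpina3g* without any 1 of the 4 LPS libraries. DESeq2 gave -0.67 for *Serpina3f* (adjusted p = 0.774) and -1.14 for *Serpina3g* (adjusted p = 0.284), past the threshold in neither, while DESeq2 on the LPS libraries alone passed both (0.00127 and 1.32e-13). Single peaks gave -0.62 and -0.55 for *Serpina3f* peaks 1 and 3 and -0.46 for *Serpina3g* peak 1 after LPS, and -4.58 for *Serpina3f* peak 3 in mock. *Serpina3g* peak 1 in mock turned to 2.18 on 1 read against 0, and *Ifi47* peaks 1 and 2 turned to 0.51 and 0.20 after LPS. The interferon-gamma list lower after LPS went from 2 to 9 with the LPS libraries alone and to 7 with DESeq2 on them, and from 2 to 9 over libraries left out. In mock it went from 6 lower to 2 with DESeq2, 1 with DESeq2 on the mock libraries, and 0 to 20 over libraries left out, and 1 to 3 were higher. Its count lower with LPS went from 1 to 0 in WT PMs with DESeq2 on those groups and from 0 to 1 in *Adap*-/- PMs with upper-quartile scaling. Genes called after LPS ran from 354 to 883 and in mock from 308 to 882, and 491 in mock with DESeq2 on that pair of groups.

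Peaks called between genotypes after LPS numbered 4 with upper-quartile scaling, 29 with DESeq2, 0 with the groups alone, 45 without the 2 mock IP libraries and 0 to 14 over replicates left out. For LPS against mock in WT PMs they numbered 1 with upper-quartile scaling, with 10 counts in every library or with the groups alone, 201 with DESeq2, 160 without the 2 mock IP libraries and 0 to 75 over replicates left out. In *Adap*-/- PMs they numbered 117, 269 and 0 to 2. Member peaks called numbered 4 (DESeq2) and 0 to 3 (replicates left out) in WT and 9 (DESeq2) and 10 (2 libraries left out) in *Adap*-/- PMs. Signs of near-zero genotype differences in m6A turned. *Serpina3f* peak 3 read -0.035 and *Serpina3g* peak 4 -0.049 with upper-quartile scaling. Over replicates left out *Serpina3f* peak 1 ran from -8.88 to 1.34, peak 3 from -0.59 to 0.69, *Serpina3g* peak 3 from -0.30 to 1.19, peak 4 from -0.59 to 0.97, peak 5 from -0.30 to 1.11 and peak 6 from -0.52 to 0.97.

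With the replicate number as a block, *Serpina3f* (-0.65, adjusted p = 0.0266), *Serpina3g* (-1.11, 0.0216) and *Tgtp1* (-0.50, 0.141) stayed on their side of the threshold, *Tgtp1* still without passing, and *9930111J21Rik2* passed (0.0297). The replicate block gave 0 peaks between genotypes after LPS, 7 for LPS in WT and 6 in *Adap*-/- PMs, and -1.34 for *Serpina3f* peak 1. Replicate differences in IP and input correlated by 0.0825, 0.0382, 0.105 and -0.100 across peaks, and those of input between groups by -0.0613 to 0.0786, so the numbers were not taken as pairs. Crossing the WT mock numbers, added after seeing the data, gave 28 and 31 peaks, 4 member peaks in *Adap*-/- PMs and -1.37 for *Serpina3f* peak 1. With 2 replicates and few mock reads, neither small genotype differences nor mock methylation of the members can be measured well.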
